A study of Mus musculus with 6 samples.

Results

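Microglia-marked myeloid cells with raised Apoe were chosen from a single-cell table of the mouse spinal cord by the values of 8 genes. A cell counted as myeloid where its deposited values of C1qa, Ctss and Tyrobp summed to 8 or more, as microglia-marked where those of P2ry12, Tmem119, Siglech and Cx3cr1 summed to 3 or more, and as raised in Apoe from a value of 10. Of 13614 cells, 1009 met all 3 limits (7.41%, exact binomial 95% interval 6.98 to 7.86%, counting error only). They are called raised-Apoe cells here. They were set beside 1353 microglia-marked cells with Apoe below 10, called low-Apoe cells, and beside 8279 myeloid cells with Apoe of 10 or more whose microglia sum was below 3, called below-limit cells. As the 8 genes chose the classes, their values describe the choice and are no result.

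The table pooled 6 libraries of spinal cord cells: EAE mice gave 2 libraries of the Nd6 genotype and 2 of WT, and controls gave 1 of each genotype. The genome of Nd6 mitochondria has a base change in the complex I gene mt-Nd6, and EAE (experimental autoimmune encephalomyelitis) was raised by immunization with a MOG peptide. Per the study's methods, EAE mice were adult females, taken about a month after immunization, and controls were of either sex, the mice of all groups were perfused with actinomycin D and triptolide, which block transcription, and the digestion buffer also held anisomycin, which blocks translation. No sort is described for these libraries, and the labels give no age. The name of a cell holds a barcode and 1 of 6 numbers that no label ties to a library, so the cells fall into 6 sets (A to F, by size) that are not assigned to a genotype or disease state here. The table was therefore treated as 1 pooled sample. No genotypes or disease states were compared and no p-value was computed, and every value below describes these cells only.

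Microglia are the resident macrophages of the CNS parenchyma. In the healthy cord they carry a homeostatic programme that includes the purinergic receptor P2ry12, the surface protein Tmem119, the lectin Siglech and the fractalkine receptor Cx3cr1. In demyelinating and degenerative disease, microglia lose much of this programme and take on a disease-associated one, in which the lipid carrier Apoe, osteopontin (Spp1), the cystatin Cst7, galectin-3 (Lgals3) and lysosomal genes are raised, in part through the lipid receptor Trem2. Infiltrating monocyte-derived macrophages can express many of the same genes, so Apoe alone does not tell the 2 lineages apart.

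Over all sets depth was much alike between the classes. The median total of deposited values per cell was 1075 in raised-Apoe cells, 1062 in low-Apoe cells and 976 in below-limit cells. The median number of genes with a value was 615, 556 and 574 in the same order. Within sets the totals of raised-Apoe cells were above those of below-limit cells, most in set B (1051 against 900) and set C (910 against 805). In set A they were 1128 against 1103 and in set F 1005 against 993.5. Low-Apoe cells had 1157 in set B and 1057 in set F. The values are whole numbers with similar totals in all cells, and as the sources used here do not give how they were made, the original UMI depth is unknown. Of the barcodes, 18 occurred in more than 1 set, and 4 raised-Apoe cells carried such a barcode. Scrublet called 4 of the 1009 raised-Apoe cells (0.396%) and 74 of all cells (0.544%) as doublets, and these cells were kept.

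Raised-Apoe cells came almost entirely from 4 of the 6 sets. Set A held 335 of them, set B 391, set C 116 and set F 153, whereas sets D and E held 7 each. Among microglia-marked cells the raised share was 100% in sets A and C, 88.9% in set B and 84.1% in set F. It was 0.971% of 721 cells in set D (95% interval 0.391 to 1.99%) and 1.23% of 568 cells in set E (0.497 to 2.52%). Low-Apoe cells showed the mirror image, with 714 in set D, 561 in set E, 49 in set B, 29 in set F and none in sets A and C. Raised against low Apoe is thus for the most part sets A, B, C and F against sets D and E, and what separates these sets from each other cannot be told apart from Apoe in the pooled values. Only sets B and F held at least 20 cells of both classes, and their values are given beside the pooled ones for the genes named most.

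The Apoe value itself depended on the set in cells of every kind. Raised-Apoe cells had a mean Apoe of 98.0 in set A, 29.4 in set B, 76.5 in set C and 44.3 in set F, and a pooled median of 46. Below-limit cells of the same sets had 100.1, 33.2, 92.0 and 61.5. Oligodendrocyte-marked cells (a sum over myelin genes of 20 or more, myeloid sum below 8) also had more Apoe in sets A and C than in sets B and F. Their means were 34.3, 11.6, 31.2 and 11.5 in sets A, B, C and F and 0.820 and 1.24 in sets D and E. Their median total was 853. In sets A and C 97.9% and 97.7% of them reached the Apoe limit of 10, in set B 60.8% and in set F 50.0%, but none of 100 in set D (95% interval up to 3.62%) and 2.44% of 123 in set E. Endothelial-marked cells (Cldn5, Flt1 and Ly6c1 summing to 5 or more, myeloid sum below 8) reached it in 85.0% of cells in set A, 40.5% in set B, 93.3% in set C, 8.33% in set F and none in sets D and E. A value of 10 was therefore within the range of cells that are not myeloid in sets A, B, C and F, and above nearly all of them in sets D and E. Free RNA and uptake were not tested as sources of these values. These 2 marked groups were defined after the values had been seen.

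**Figure D1:**
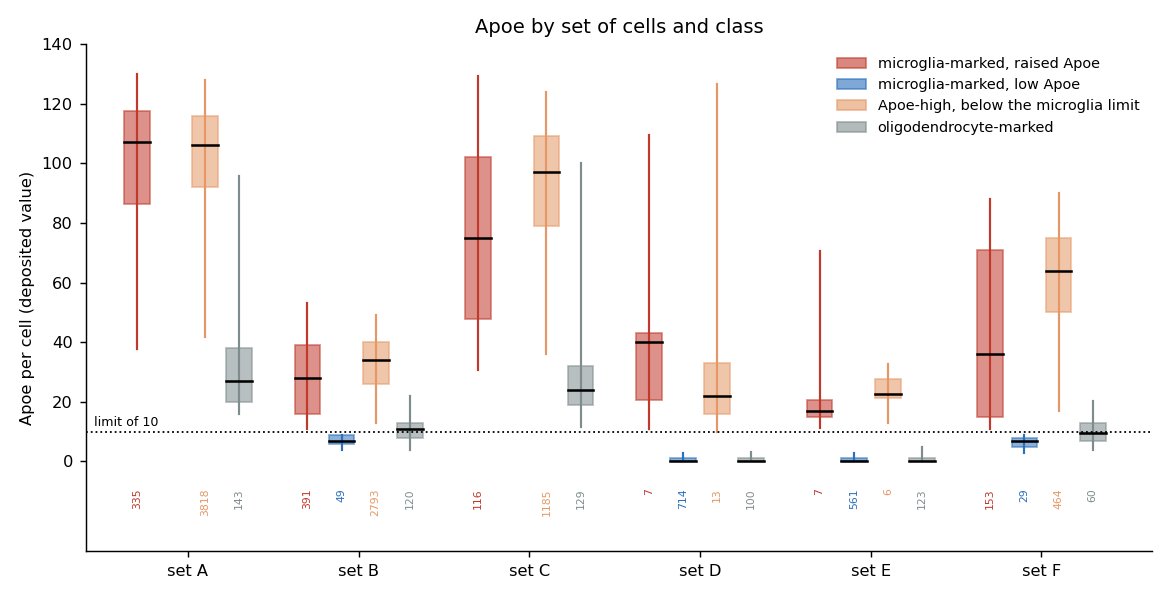
Apoe per cell (deposited value, y axis) in the 6 sets (x axis) for raised-Apoe, low-Apoe, below-limit and oligodendrocyte-marked cells, with the median (black line), the middle 50% of cells (box), the 5th to 95th percentile (line) and the number of cells underneath. Raised-Apoe cells had medians of 107 in set A and 28 in set B, and oligodendrocyte-marked cells of the same sets 27 and 11, while in sets D and E oligodendrocyte-marked cells had a median of 0.

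Set against the oligodendrocyte-marked cells of its own set, the raised level stood out in 602 of the 1009 cells (59.7%), which lay above both 10 and the 95th percentile of those cells. By set these were 233 of 335 cells in A (percentile 95.6), 227 of 391 in B (22.1), 31 of 116 in C (100), 98 of 153 in F (20.3), 7 of 7 in D and 6 of 7 in E, where the percentile was below 10. The share was lowest in set C. Above the highest oligodendrocyte-marked cell of the set lay 302 of the 1009 cells.

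A microglia gene that the rule did not use was compared between the classes. Csf1r, the receptor for the survival factor of microglia, had a value in 63.4% of raised-Apoe cells (mean 1.29 ± 1.51, SD over 1009 cells), against 89.4% of low-Apoe cells (2.98 ± 2.16) and 13.8% of oligodendrocyte-marked cells (0.187). It was not confined to microglia-marked cells. Below-limit cells with a microglia sum of 2 averaged 0.813, and raised-Apoe cells with a sum of 3 averaged 0.922. Of other microglia genes outside the rule, Sall1 had a value in 6.74% of raised-Apoe cells and P2ry13 in 10.2%. Olfml3 had a value in 42.2% and Sparc in 56.9%. Of the markers named with the rule, P2ry12 was above 0 in 49.4% of raised-Apoe cells and 79.5% of low-Apoe cells, and Tmem119 in 48.8% and 52.3%. Spp1 was above 0 in 84.2% of raised-Apoe cells, 8.35% of low-Apoe cells and 54.5% of oligodendrocyte-marked cells. The microglia limit was reached with few genes: 168 raised-Apoe cells had a value for 1 of the 4 genes, 438 for 2, 329 for 3 and 74 for all 4, while among low-Apoe cells 318 of 1353 had all 4. The median sum was 3 in raised-Apoe cells, the lowest the rule allows, and 5 in low-Apoe cells. The name microglia thus rests on low values of few genes in most raised-Apoe cells, and their microglia gene levels were lower than in low-Apoe cells.

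Compared with low-Apoe cells, raised-Apoe cells had higher pooled means of disease-associated genes and lower pooled means of homeostatic genes. Some MHC class II, chemokine and macrophage genes were higher too. Nearly all of these passed the limit on cells with a value, given below, only through raised-Apoe cells, so their counts are no support. Spp1, Gpnmb, Lgals3 and Cst7 were among the disease-associated genes that were higher, and Cst3, Gpr34, Csf1r and Sparc among the homeostatic ones that were lower. A gene was called higher or lower where the means pooled over all sets differed at least 2-fold. The means within set B and within set F had to differ in the same direction, by any amount. Compared were 1447 genes with a value in at least 10% of the cells of either class. Of these genes 71 (4.91%) were higher in raised-Apoe cells and 75 (5.18%) lower, and the median ratio over all genes was 0.919. By fold alone 128 (8.85%) were higher and 115 (7.95%) lower. A gene that passed the 10% limit through 1 class alone was bound to differ, and 236 of the 1447 genes passed only through raised-Apoe cells and 242 only through low-Apoe cells. Among the 969 genes that passed in both classes, 12 were called higher and 39 lower.

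The list of disease-associated genes held 26 genes, of which 21 were compared, 11 called higher and none lower, with a median ratio of 4.65 (0.919 over all genes). Of these 21 genes 9 passed the limit only through raised-Apoe cells, and of the 12 that passed in both classes 3 were called higher, with a median ratio of 1.63 (0.914 over all such genes). The called genes among those 9 were Spp1, Gpnmb, Lgals3, Cst7, Clec7a, Fabp5, Lpl and Igf1. For these a difference was largely set by the limit, and their values describe the classes. Spp1 (osteopontin, a secreted matrix protein) averaged 5.66 ± 5.56 in raised-Apoe cells (SD over cells) and 0.115 ± 0.461 in low-Apoe cells. In raised-Apoe cells it had a mean of 8.96 in set A, 4.62 in set B, 3.5 in set C and 3.10 in set F, against 1.43, 0.0616, 0.0463 and 0.517 in low-Apoe cells of sets B, D, E and F. Among sets with at least 20 cells of a class, the lowest raised-Apoe mean was 3.10 (set F) and the highest low-Apoe mean 1.43 (set B). Oligodendrocyte-marked cells had 3.66, 2.48, 1.75 and 1.23 in sets A, B, C and F, below raised-Apoe cells of each set, while low-Apoe cells of sets B and F were below the oligodendrocyte-marked level.

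The other called genes of that list followed Spp1. Gpnmb, a lysosomal membrane glycoprotein, averaged 0.459 in raised-Apoe and 0.00443 in low-Apoe cells. In raised-Apoe cells Gpnmb was highest in set A at 0.884, against 0.258 in set B, 0.293 in set C and 0.209 in set F. Lgals3 (galectin-3) averaged 0.741 against 0.0200, Cst7 (cystatin F) 0.562 against 0.0237, Clec7a (the beta-glucan receptor dectin-1) 0.464 against 0.0377 and Cd63 (a late endosomal tetraspanin) 1.78 against 0.383. Lyz2 (lysozyme) had 5.48 in raised-Apoe cells and 0.439 in low-Apoe cells, Fabp5, a fatty acid carrier, 0.999 and 0.0613, Lpl (lipoprotein lipase) 0.221 and 0.0155, Ctsz (cathepsin Z) 2.41 and 1.15, and Igf1, a growth factor, 0.136 and 0.000739. Fabp5 reached 1.14 in oligodendrocyte-marked cells, above raised-Apoe cells. Most of these differences were smaller within sets B and F pooled. There Gpnmb had 0.244 in raised-Apoe and 0.0769 in low-Apoe cells, Lgals3 0.700 and 0.244, Lyz2 4.71 and 1.56, and Fabp5 1.05 and 0.269. Cst7 differed by less than the fold limit in these sets, with 0.403 and 0.295, as did Clec7a (0.384 and 0.231), Cd63 (1.74 and 1.17) and Ctsz (2.47 and 2.04), and Lpl and Igf1, at 0.0882 and 0.0551 in raised-Apoe cells, were listed at 0 in low-Apoe cells. Trem2, the lipid receptor that the disease-associated programme depends on in part, did not differ between the classes, with 1.94 in both and with 1.62 against 1.92 in set B and 2.22 against 2.07 in set F. Cathepsins B and D were higher by less than the fold limit, Ctsb at 2.99 against 1.64 and Ctsd at 10.2 against 5.66.

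MHC class II genes, which present antigen to CD4+ T cells, were near 0 in low-Apoe cells. Of 6 compared, 4 were called higher, with a median ratio of 26.5 over the 6, but 5 of the 6 had passed the limit only through raised-Apoe cells, so the count and the median were largely set by that limit. Cd74, the invariant chain, had 3.76 ± 3.13 in raised-Apoe cells and 0.140 ± 0.768 in low-Apoe cells (SD over cells). By set Cd74 had 4.46, 4.25, 2.78 and 2.08 in raised-Apoe cells of sets A, B, C and F, against 2.39, 0.0280, 0.0267 and 1.28 in low-Apoe cells of sets B, D, E and F. Here low-Apoe cells of set B (2.39) lay above raised-Apoe cells of set F (2.08), so the sets overlapped. H2-Aa had means of 1.24 and 0.0251, H2-Ab1 1.21 and 0.0466 and H2-Eb1 0.820 and 0.0148 in raised-Apoe and low-Apoe cells. Within sets B and F pooled they had 1.12 and 0.385, 1.23 and 0.615, and 0.776 and 0.218. H2-DMa and H2-DMb1, which load peptide, were below the fold limit with ratios of 1.2 and 1.74.

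Most chemokine and macrophage genes had a value in few cells. Of 7 inflammatory chemokines 4 were called higher and none lower, with a median ratio of 9.54, but 6 of the 7 had passed the limit only through raised-Apoe cells, so this count and median support nothing. Ccl4 averaged 0.212 in raised-Apoe cells and 0.00813 in low-Apoe cells, Ccl3 0.141 and 0.00665, and Ccl2 0.129 and 0.00813. All 3 attract leukocytes. Within sets B and F pooled, Ccl4 had 0.176 and 0.0256 and Ccl2 0.208 and 0.128 in raised-Apoe and low-Apoe cells, while Ccl3 had 0.107 and was listed at 0 in low-Apoe cells. Ccl12 was not called: it had 0.645 in raised-Apoe cells and 0.126 in low-Apoe cells over all sets, but 0.919 and 1.54 within sets B and F. Of 22 genes of infiltrating monocytes and macrophages only 6 passed the limit on cells with a value, all 6 through raised-Apoe cells alone, so that it is no support that 5 of them were called higher, namely Fn1, Vim, AA467197, S100a6 and Lgals3. Lgals3 is on the disease-associated list too. The summed level of the whole monocyte list was 2.91 in raised-Apoe cells (1.33 in set C to 4.05 in set B), 0.290 in low-Apoe cells and 3.58 in below-limit cells. In low-Apoe cells it was 2.84 in set B and 1.07 in set F, but 0.185 in set D and 0.160 in set E. Low-Apoe cells of set B thus lay above raised-Apoe cells of sets C (1.33) and F (1.49). Ccr2, the defining gene of the list, averaged 0.0228, 0.00148 and 0.0310 in raised-Apoe, low-Apoe and below-limit cells. The border macrophage genes Mrc1 and Pf4 averaged 0.00793 each in raised-Apoe cells. The part of infiltrating cells in these values was not tested.

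Further genes among the 15 with the largest ratios were the complement component C3 (0.116 in raised-Apoe cells and 0.00148 in low-Apoe cells), the inhibitory receptor Cd300lf (0.136 and 0.00370), the secreted protein gene Wfdc17 (0.214 and 0.00739) and AA467197 (0.148 and 0.00443). C3, Cd300lf, Wfdc17 and AA467197 passed the 10% limit only through raised-Apoe cells, so they were bound to differ. Cybb, the catalytic subunit of the phagocyte NADPH oxidase, was the only 1 of 5 compared oxidase genes to be called, with 0.142 against 0.00961. It too passed the limit only through raised-Apoe cells, so its call is no support, and it had 0.131 against 0.103 within sets B and F. In lipid handling, where 5 of 7 compared genes passed the limit only through raised-Apoe cells, 4 were called higher, Fabp5, Lpl, the lipid droplet gene Plin2 (ratio 3.25) and Apobec1 (3.81), which edits Apob mRNA. The cholesterol exporter Abca1 was not called, at 0.219 in raised-Apoe cells against 0.117 in low-Apoe cells. Of 21 compared lysosomal genes 3 were called higher and 1 lower, with a median ratio of 1.52 (0.919 over all genes). Over all 1447 genes 4.91% were called higher and 5.18% lower. Within sets B and F the median ratio was 1.58 for lipid handling genes and 1.10 for lysosomal genes. None of the lysosomal genes differed 2-fold there.

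Homeostatic genes outside the rule were lower in raised-Apoe cells. All 24 genes of the list were compared, 9 were called lower and none higher, and the median ratio was 0.51 (0.919 over all genes). As 22 of the 24 passed the limit in both classes, 8 of them called lower, the limit bore little on this count. Cst3 (cystatin C), the most abundant of them, averaged 21.3 ± 20.1 in raised-Apoe cells and 72.8 ± 34.8 in low-Apoe cells (SD over cells). Its means in raised-Apoe cells were 15 in set A, 19.6 in set B, 18.3 in set C and 37.9 in set F, against 26.3, 75.4, 73.6 and 69.4 in low-Apoe cells of sets B, D, E and F. The lowest low-Apoe set (B) lay below the highest raised-Apoe set (F). Gpr34, a lysophosphatidylserine receptor, had 0.341 against 1.5, Csf1r 1.29 against 2.98, Sparc, a matrix protein, 1.15 against 2.67, and Sall1, a transcription factor that maintains microglial identity, 0.0694 against 0.208. Within sets B and F pooled, Gpr34 had 0.327 and 0.872, Csf1r 1.52 and 1.95, and Sparc 1.38 and 1.85 in raised-Apoe and low-Apoe cells. Selplg, Crybb1, Golm1 and Entpd1 were also called lower. The efferocytosis receptor Mertk was the only gene of the list with a ratio above 1 (1.45).

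The lower genes also included several outside the lists. Hpgd, a prostaglandin-degrading dehydrogenase, had the smallest ratio, with 0.0942 in raised-Apoe cells and 1.00 in low-Apoe cells, and a value in 7.63% and 52.4% of cells. In set B it was near 0 in both classes, with 0.0435 and 0.102, and in set F it had 0.255 and 0.690. Abca9 followed with 0.0932 against 0.441. Klk8, Fam102b, Cd164, Ogfrl1, Tcea1, mt-Nd4l, Cyfip1 and Txnip were also among the 15 lowest ratios, as were Gpr34, Cst3, Sall1 and Crybb1. Of the genes named here, only Cyfip1, Gpr34, Cst3 and Crybb1 passed the 10% limit in both classes. The others, with Hpgd and Abca9, passed it through low-Apoe cells alone, so they were bound to differ and their ratios are no support.

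Within sets B and F the same lists moved less. Pooled over these 2 sets, 71 of the 1447 genes (4.91%) were at least 2-fold higher in raised-Apoe cells and 54 (3.73%) at least 2-fold lower. The median ratio was 1.39 for disease-associated genes (4.65 over all sets), 0.70 for homeostatic genes (0.51), 1.92 for MHC class II (26.5), 1.74 for chemokines (9.54), and 0.892 for all genes. MHC class I and interferon genes lay on the other side of 1 there. The median ratio of 8 MHC class I genes was 2.45 over all sets and 0.963 within sets B and F, and that of 6 interferon genes 3.88 and 0.677. B2m, the light chain of class I, had 5.86 against 2.72 over all sets but 6.79 against 7.0 in set B and 5.50 against 6.86 in set F. H2-D1, a class I heavy chain, had 3.16 against 0.694 over all sets, 3.41 against 3.24 in set B and 3.07 against 4.07 in set F. For these 2 lists the pooled excess was thus not present inside sets B and F.

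**Figure D2:**
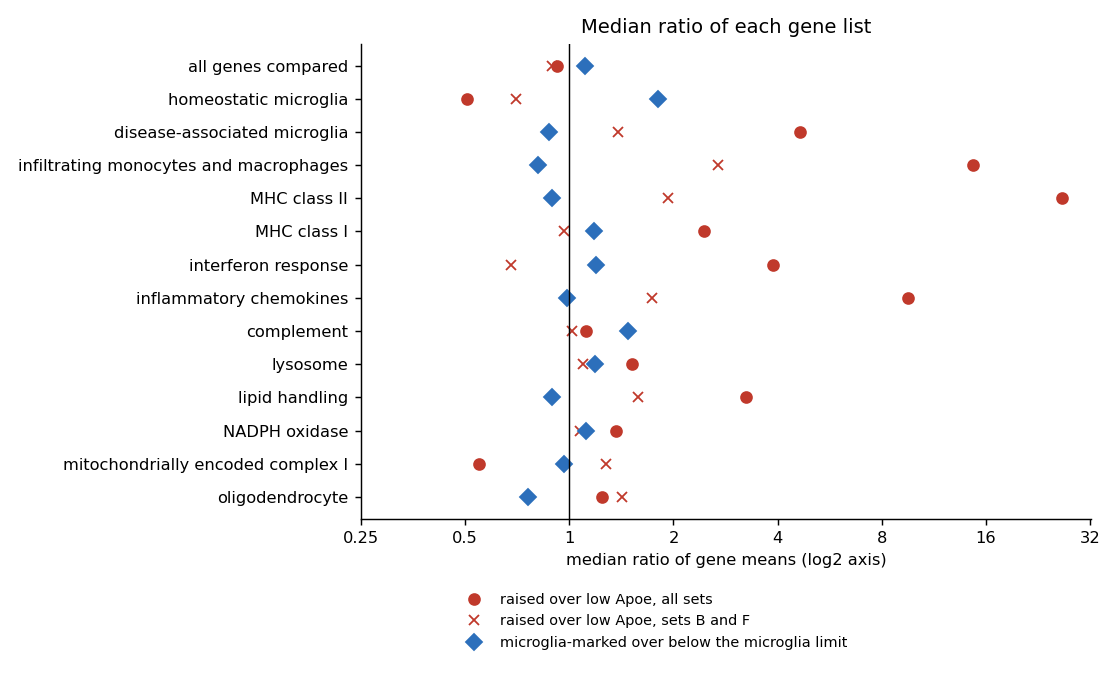
Median ratio of gene means for 13 gene lists and for all genes compared (x axis, log2), for raised-Apoe over low-Apoe cells in all sets (circles) and in sets B and F (crosses) and for raised-Apoe over below-limit cells (diamonds). For disease-associated genes the ratios were 4.65, 1.39 and 0.874, and for homeostatic genes 0.51, 0.70 and 1.81.

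**Figure D3:**
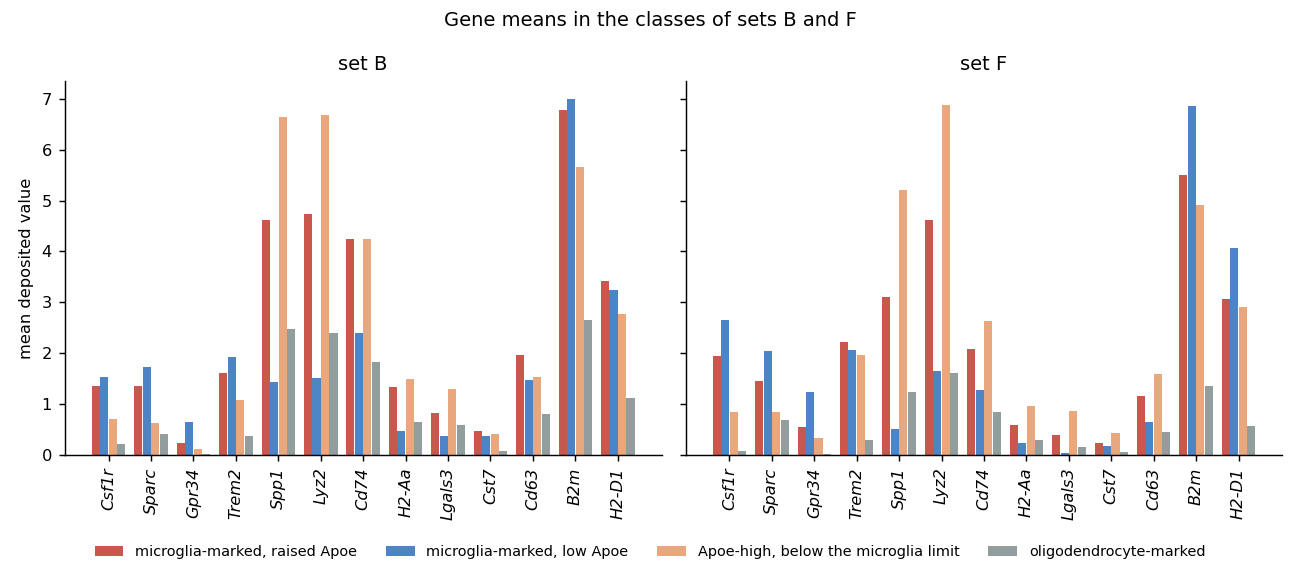
Mean deposited value (y axis) of 13 genes in raised-Apoe, low-Apoe, below-limit and oligodendrocyte-marked cells of set B (left) and set F (right). Spp1 had 4.62 in raised-Apoe and 1.43 in low-Apoe cells of set B and 3.10 and 0.517 in set F, while B2m was 6.79 and 7.0 in set B.

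Along the Apoe value gene means shifted over several ranges, but the ranges also differed in their sets. Microglia-marked cells were put into 7 Apoe ranges, chosen after the values had been seen. Set A held 265 of the 348 cells with Apoe of 80 or more. Of the 49 low-Apoe cells of set B 44 had Apoe of 5 to 9, as had 22 of the 29 of set F. The ranges of 2 to 4 and 0 to 1 thus came almost entirely from sets D and E. In the 348 cells with Apoe of 80 or more, in 229 with 40 to 79, in 236 with 20 to 39 and in 196 with 10 to 19, Spp1 averaged 9.17, 5.07, 4.42 and 1.61. In the low-Apoe ranges of 5 to 9, 2 to 4 and 0 to 1 (101, 180 and 1072 cells) it had 0.772, 0.189 and 0.0401. Csf1r had the opposite order, with 0.882, 1.10, 1.45 and 2.03 in the 4 raised ranges and 2.52, 2.56 and 3.10 in the 3 low ranges. Gpr34 had 0.299, 0.319, 0.275 and 0.52 in the raised ranges, against 0.970, 1.23 and 1.59. For Csf1r and Spp1 no large step stood at the limit. The 52 cells with Apoe of 10 or 11 had a mean Csf1r of 1.98 and a mean Spp1 of 1.5, and the 43 cells with 8 or 9 had 2.14 and 1.14.

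Inside single sets Spp1 and Lyz2 had the same order. In set B, Spp1 had 6.87 in cells with Apoe of 40 to 79, 5.59 with 20 to 39, 1.82 with 10 to 19 and 1.45 with 5 to 9. Lyz2 in these ranges of set B had 7.0, 5.53, 2.36 and 1.59, and Cst3 12.9, 18.3, 25.4 and 27.3. Csf1r in set B had 0.988, 1.23, 1.67 and 1.59. In set A Spp1 had 10.3 in 265 cells with Apoe of 80 or more, 4.65 in 46 with 40 to 79 and 2.71 in 24 with 20 to 39. In set F it had 5.35, 4.86, 1.59, 1.24 and 0.591 over the 5 ranges from 80 or more down to 5 to 9. Csf1r and Cst3 did not follow a steady order in set F, with Csf1r at 1.13, 0.84, 2.79, 2.88 and 2.73 and Cst3 at 31.4, 25.5, 41.8, 50.7 and 64.0 over these ranges. Trem2 had no common direction, being lower with higher Apoe in set B (1.33 with 40 to 79 and 2.09 with 5 to 9) and not in set F (2.14 and 1.95).

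**Figure D4:**
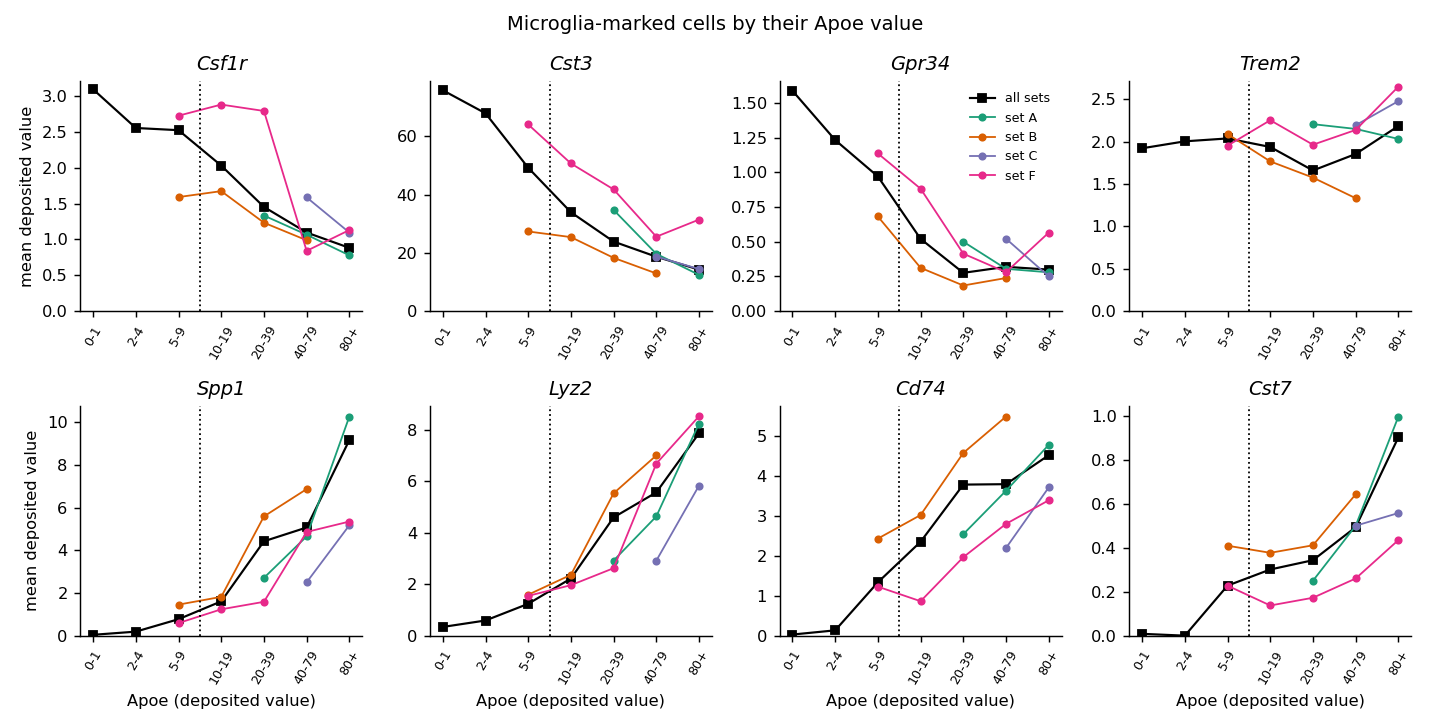
Mean deposited value (y axis) of 8 genes in microglia-marked cells by Apoe range (x axis, dotted line at the limit of 10), for all sets (black) and sets A, B, C and F, ranges with at least 20 cells. Over all sets Spp1, Lyz2 and Cd74 were higher and Csf1r and Cst3 lower in the high ranges, with Spp1 at 9.17 in the range from 80 and at 0.0401 in the range of 0 to 1.

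As a fixed limit of 10 means different things in different sets, the split was repeated with a limit per set, the 95th percentile of oligodendrocyte-marked cells (and at least 10), an alternative added after the data had been seen. It gave 602 cells above and 1760 at or below, with at least 20 of both in sets A (233 and 102), B (227 and 213), C (31 and 85) and F (98 and 84). Sets D and E held 7 and 6 of the cells above the limit, against 714 and 562 of those at or below it. The pooled ratios are thus still for a large part sets A, B, C and F against sets D and E. Of 1493 genes 58 (3.88%) were called higher and 62 (4.15%) lower, with the same direction required in all 4 sets. Of disease-associated genes 8 of 22 were called higher and none lower, with a median ratio of 2.79 (0.962 over all genes). Of homeostatic genes 10 of 24 were called lower and none higher (0.433), and of MHC class II genes 4 of 6 higher (6.57). Markers of other cell types moved with this split too, with 1 of 5 endothelial genes (median ratio 2.39) and 1 of 6 oligodendrocyte genes (1.56) called higher, and with a median of 9.71 for 3 B or plasma cell genes, none called. Their part in the values was not tested. Spp1 averaged 10.4, 6.55, 5.26 and 4.11 in cells above the limit of sets A, B, C and F, against 5.57, 1.83, 2.86 and 1.04 in cells at or below it. Sparc averaged 0.648, 1.10, 0.774 and 1.14 above the limit, against 0.863, 1.72, 1.11 and 2.01. Spp1 was thus higher and Sparc lower above the limit in each of the 4 sets. A call required such agreement, so for called genes it is no separate result. As oligodendrocyte-marked cells of these sets also had Spp1 values, of 1.23 in set F to 3.66 in set A, the part of free RNA in the shift of Spp1 was not tested.

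Compared with below-limit cells, few genes reached the fold limit in raised-Apoe cells, and those that did were higher. Of 1255 genes compared, 10 (0.797%) were at least 2-fold higher in raised-Apoe cells with the same direction in sets A, B, C and F, and 0 (0%) were at least 2-fold lower, and by fold alone 11 (0.876%) were higher and 0 lower. The median ratio over all genes was 1.11. With a microglia limit of 5 in place of 3, 161 genes were higher and 56 lower. The 10 genes were Selplg, Lag3, P2ry13, Olfml3, Rnaset2b, Sparc, Tmem173, Rnaset2a, Laptm5 and Ptgs1, of which Selplg, P2ry13, Olfml3 and Sparc are on the homeostatic list. Lag3 is an inhibitory immune receptor, Tmem173 encodes the DNA-sensing adaptor STING and Laptm5 a lysosomal membrane protein. Selplg, the P-selectin ligand, had a mean of 0.704 in raised-Apoe cells and 0.249 in below-limit cells, and 0.424 against 0.225 in set A, 0.668 against 0.252 in set B, 0.802 against 0.225 in set C and 1.31 against 0.463 in set F. A call required a higher mean in raised-Apoe cells of each of these sets, and the excess of Selplg was least in set A. Rnaset2a and Rnaset2b are near-identical copies, whose values are uncertain because reads can fall to either.

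The homeostatic list as a whole leaned the same way. Of 22 genes compared, 4 were called higher and none lower, all 22 had a ratio above 1 (913 of the 1255 genes compared), and 19 were higher in raised-Apoe cells of all 4 sets, with a median ratio of 1.81 against 1.11 for all genes. Sparc had 1.15 in raised-Apoe cells against 0.531 in below-limit cells, Csf1r 1.29 against 0.655 and Cst3 21.3 against 11.1. Complement genes outside the rule had a median ratio of 1.47, with none of 8 called, and C1qb, a subunit of the C1q complex whose C1qa chain is in the rule, had 7.58 against 5.37. Disease-associated genes had a median ratio of 0.874, with none of 22 called and 7 lower in all 4 sets. Spp1 averaged 5.66 in raised-Apoe cells against 8.01 ± 7.56 in below-limit cells (SD over 8279 cells), Lyz2 5.48 against 7.02, Fabp5 0.999 against 1.42, Lgals3 0.741 against 1.07 and Gpnmb 0.459 against 0.644. In all 4 sets Spp1 was lower in raised-Apoe cells, with 8.96, 4.62, 3.5 and 3.10 in sets A, B, C and F against 10.1, 6.64, 5.66 and 5.21 in below-limit cells.

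Between the 2 comparisons raised-Apoe cells took a middle place. No gene was called higher against both other classes. Ptgs1 (cyclooxygenase 1), Selplg and Sparc were called lower against low-Apoe cells and higher against below-limit cells. Ptgs1 averaged 0.206 in raised-Apoe cells, 0.412 in low-Apoe cells and 0.101 in below-limit cells. The summed level of the homeostatic list was 35.9 in raised-Apoe cells, 100.5 in low-Apoe cells and 19.4 in below-limit cells, and that of the disease-associated list 65.7, 32.2 and 76.6. The 2 comparisons share the raised-Apoe cells, so a middle value in both is 1 observation.

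Where the microglia sum was higher, raised-Apoe cells were less like below-limit cells. Of the 1009 cells, 564 (55.9%) had a sum of exactly 3, 225 (22.3%) a sum of 4 and 220 (21.8%) a sum of 5 or more. Csf1r averaged 2.25 in cells with a sum of 5 or more, 1.26 with 4 and 0.922 with 3, against 0.813 in the 1463 below-limit cells with a sum of 2. Cst3 had 36.1, 22.4 and 15.1 in the same 3 groups of raised-Apoe cells and 13 at a sum of 2, and Sparc 1.86, 1.2, 0.844 and 0.612. Cells just inside the limit therefore had Csf1r and Cst3 levels closer to those just outside it than to those of cells with a sum of 5 or more. Spp1 ran the other way, with 2.38, 5.24 and 7.1 in raised-Apoe cells of sum 5 or more, 4 and 3 and 7.70 at a sum of 2, and so did Lyz2 (3.0, 5.0, 6.64 and 7.02). The sets were mixed differently, as set A held 238 of the 564 cells with a sum of 3 and 40 of the 220 with 5 or more, and set F 55 and 67. Within each of sets A, B, C and F, Csf1r was highest and Spp1 lowest in the cells with a sum of 5 or more, but Sparc and Cst3 were not highest there in set C. The median total was 1048, 1079 and 1081 in the 3 groups and 1066 at a sum of 2.

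By set, the share of raised-Apoe cells with a sum of 5 or more was 43.8% in set F, 23.3% in set C, 20.2% in set B and 11.9% in set A. In set F these 67 cells had a mean Csf1r of 3.01, Cst3 of 46.3 and Spp1 of 1.4. The 40 such cells of set A had 1.75, 30.4 and 4.75 for the same genes. In set A Csf1r had 0.714 at a sum of 3 and 0.825 at a sum of 4, Sparc 0.605 and 0.596, and Spp1 9.75 and 8.6. In set B Csf1r had 1.07 at a sum of 3 and 1.39 at a sum of 4, and Sparc 1.02 and 1.38. Some cells of other types also reached the microglia limit, 3.26% of oligodendrocyte-marked and 0.948% of endothelial-marked cells.

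**Figure D5:**
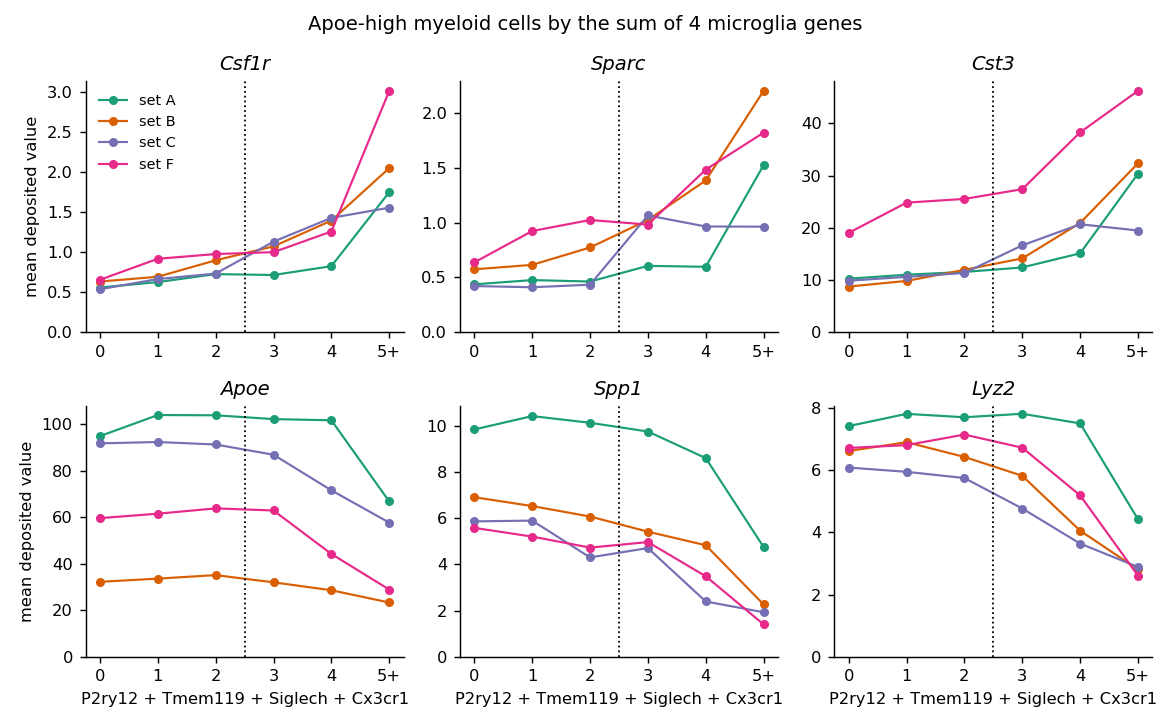
Mean deposited value (y axis) of 6 genes in Apoe-high myeloid cells by the sum of P2ry12, Tmem119, Siglech and Cx3cr1 (x axis, dotted line at the limit of 3), for sets A, B, C and F. In set F Csf1r had 3.01 at a sum of 5 or more and 1.0 at a sum of 3, and Spp1 1.4 and 4.96.

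The mutated gene of the Nd6 mice belongs to the 7 mitochondrially encoded complex I genes. Of these 7 genes, 1 (mt-Nd4l) was called lower in raised-Apoe than in low-Apoe cells and none higher. mt-Nd4l had a value in 4.96% of raised-Apoe and 14.1% of low-Apoe cells. It passed the limit on cells with a value only through low-Apoe cells, so its call is no support. Of the 6 genes that passed in both classes none was called. Over all 1447 genes compared, 5.18% were called lower. The median ratio of the 7 complex I genes was 0.55 over all sets but 1.27 within sets B and F. mt-Nd1 averaged 5.53 in raised-Apoe and 8.50 in low-Apoe cells, yet 5.57 against 4.78 in set B and 8.17 against 4.48 in set F. The share of all mitochondrially encoded genes had the same order, with a median of 5.04% in raised-Apoe and 9.27% in low-Apoe cells over all sets, 5.02% against 3.52% in set B and 8.6% against 3.86% in set F. Its part in the complex I values was not tested.

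Markers of other cell types were present in all classes, and of the lists given here those of oligodendrocytes had the highest level. The summed level of 8 oligodendrocyte genes was 10.5 in raised-Apoe cells (7.27 in set B to 15.2 in set A), 8.93 in low-Apoe cells and 14.3 in below-limit cells, and none of the 4 or 6 genes compared was called. Astrocyte genes summed to 0.648, 0.841 and 0.672 and endothelial genes to 0.711, 0.508 and 0.923. T or NK cell genes summed to 0.266, 0.00591 and 0.310 and B or plasma cell genes to 0.402, 0.258 and 0.456, and neutrophil genes to 0.471, 0.330 and 0.457. Genes of proliferating cells summed to 1.39 in raised-Apoe cells (0.621 in set C to 2.02 in set B), 0.973 in low-Apoe cells and 1.25 in below-limit cells.

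The 14 raised-Apoe cells of sets D and E were looked at singly, after their values had been seen, because oligodendrocyte-marked cells of these sets had almost no Apoe. In set D their Apoe values were 137, 45, 41, 40, 30, 11 and 11 and in set E 91, 23, 18, 17, 16, 14 and 10, where the highest oligodendrocyte-marked cell had 6 in set D and 22 in set E. Csf1r averaged 2.5 in the 14, against 3.04 in the 1275 low-Apoe cells of sets D and E. Sparc averaged 3.29 against 2.72 and Gpr34 1.36 against 1.53. Spp1 was above 0 in 3 of the 14, with values of 12, 9 and 1, and Cd74 and Cst7 were 0 in all 14. In these few cells raised Apoe stood beside levels of Csf1r, Sparc and Gpr34 near those of low-Apoe cells. Other genes were further apart, with Lyz2 at 2.14 against 0.370, Spp1 at 1.57 against 0.0549 and the astrocyte gene Aqp4 at 0.286 against 0.0212, the last from 2 of the 14 cells. None had a value for the border macrophage genes Mrc1, Pf4, Ms4a7 or Cd163, which 4 of the 19 below-limit cells of sets D and E had.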

How the data were processed

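Single cells of the spinal cord of Nd6 and WT mice, with EAE or as controls, were measured by droplet-based 3′ RNA-seq in 6 libraries. Per the labels and the study's methods, reads were mapped to GRCm38 by the authors in Cell Ranger 7.1.0, with introns counted, and the cells of all libraries were joined and filtered in Seurat 4.3.0.1. The deposited values are a score per gene and cell: whole numbers whose totals per cell have a median of 962 and lie within a narrow range. How they were made from UMI counts is not given in the sources used here, so the original depth is unknown and no count model was used.

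The table of 13614 cells and 18792 genes was read as deposited. Classes were cut by the limits given in the report. The members and the 29 gene lists were chosen with earlier results of these data known. A gene was compared where at least 10% of cells of either class had a value, and called where the ratio of class means reached 2 with the same direction in every set with at least 20 cells of both classes. The 8 genes of the rule were left out. The text names the called genes with the 15 largest and 15 smallest ratios in each comparison, the genes of the rule and members of the lists. The values of some of these genes are not reported here. A quasi-likelihood test of the Nd6 against the WT libraries with EAE had been planned and was not run, since cells are not paired with libraries and a score does not allow it. Cells are not replicates, so no test over cells was run, SDs are over cells, and intervals are exact binomial (Clopper-Pearson, 95%). The calling step was tested on simulated data. Alternatives were limits of 5 and 20 for Apoe and of 2 and 5 for the microglia sum, values scaled to 10000 per cell, equal weights per set, the stated cell limits, other limits on the share of cells, Scrublet calls left out and each set left out. The limit per set, the restriction to sets B and F, the oligodendrocyte- and endothelial-marked cells and the Apoe and microglia sum ranges were chosen after seeing the data. Python 3.11.15, numpy 2.4.6, scipy 1.17.1, pandas 2.3.3 and scanpy 1.11.5 were used.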

Additional observations from a re-analysis of the deposited data

How the results depend on the processing

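The share of cells that met the rule (7.41%) was 4.41% when values were scaled to the median total before the limits were applied, 8.15% and 5.97% with Apoe limits of 5 and 20, 18.2% and 1.62% with microglia limits of 2 and 5, 4.42% with the Apoe limit per set, and 6.42% to 8.14% when 1 set was left out. Against low-Apoe cells, the 71 genes higher became 47 with an Apoe limit of 5, 158 and 1119 with genes in at least 5% of cells or with no such limit, and 66 to 107 without 1 set. The 75 genes lower became 116 with an Apoe limit of 20, 118 and 188 with the other limits on the share of cells, 48 with equal weights per set, 132 within sets B and F alone, and 48 (without set A) to 109 (without set F). Against below-limit cells, the 10 genes higher became 16 and 3 with Apoe limits of 5 and 20, 1 and 161 with microglia limits of 2 and 5, 16 and 105 with the other limits on the share of cells, 1 with the Apoe limit per set, 30 within sets B and F, and 7 (without set B) to 33 (without set A). The count of 0 genes lower became 56 with a microglia limit of 5, 1 and 322 with the other limits on the share of cells, and 1 within sets B and F, and it was 0 without any 1 set. The ratio of the summed homeostatic list was 0.357 against low-Apoe cells, and 0.566 with a microglia limit of 5, 0.646 with equal weights per set and 0.638 within sets B and F. Against below-limit cells it was 1.85, and 2.96 with a microglia limit of 5. The ratios of the summed disease-associated list stayed within 1.5 times of 2.04 and 0.857 under every alternative run. Against low-Apoe cells the summed ratio of MHC class I was 2.88, but 0.911 with equal weights per set and 0.953 within sets B and F, and that of interferon genes 3.40, but 0.616 and 0.634. Of 861 values of other list ratios under the alternatives 784 were within 1.5 times of the reported one. The causes of these shifts were not tested, other than that fewer sets or other cells entered. Gene values near 0 are limited by the low totals per cell. No paired analysis was possible because no label links the cells to numbered libraries.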

Other observations

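Low-Apoe cells of set B differed from those of the other sets in interferon and cell cycle genes. The summed level of 21 interferon response genes was 4.51 in raised-Apoe cells of set B and 8.24 in its 49 low-Apoe cells, whereas low-Apoe cells had 0.633 in set D, 0.570 in set E and 1.93 in set F. Isg15, an interferon-induced ubiquitin-like protein, averaged 0.120 in raised-Apoe and 0.490 in low-Apoe cells of set B, and Bst2 (tetherin) 0.547 and 1.06. Ccl12, a monocyte-attracting chemokine, averaged 1.17 and 2.33, with a value in 57.0% and 69.4% of cells, and 17.5% of oligodendrocyte-marked cells of the set had a value. The cell cycle gene Mki67 had a value in 5.63% of raised-Apoe and 14.3% of low-Apoe cells of set B, against 0.299% of raised-Apoe cells of set A. These 49 cells were singled out after their values had been seen, and no cause was tested.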
